A study of Mus musculus with 6 samples.

Results

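The genes of mitosis and chromosome segregation are described here in mouse embryos that lack Sp3. A list of 40 genes that drive the last stage of the cell cycle was matched to the array's gene annotation, and the brightest probe set of each gene, by its mean over the arrays, stood for it. This gave 39 measured genes of 18193 genes on the array. For Ccnb1 (cyclin B1) no probe set is annotated to that gene alone, and it was not analysed here. Per the labels, 3 arrays (lettered a to c) held hearts of Sp3 knockout fetuses at stage E12.5, and they were set against 3 arrays (a to c) of hearts from wildtype fetuses of that stage. The labels state that RNA came from single hearts. The strain and the way the allele was made are not given in the sources used here, and no other treatment is named. A level below means log2 of the deposited intensity, a difference means knockout mean minus wildtype mean on that scale, and the spread is the SD over 3 arrays.

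In a dividing cell, cyclins A and B switch on the kinase Cdk1, which starts chromosome condensation and the building of the spindle. Kinetochores tie chromosomes to the spindle, the spindle checkpoint holds back the anaphase-promoting complex (APC/C, a ubiquitin ligase) until all are attached, and the midzone then guides the cut between the daughter cells. Most of these genes are transcribed late in the cell cycle, under the DREAM and B-Myb complexes and the factors NF-Y and FoxM1, so their transcripts are widely read as a mark of proliferating cells. In a bulk sample, fewer dividing cells and less RNA per dividing cell cannot be told apart. In embryos of this stage, heart muscle, liver, red cell precursors and macrophages all divide.

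Sp3, a zinc finger factor that binds GC-rich promoter elements, was at 8.39, 8.34 and 8.61 in knockout arrays a to c, against 9.87, 9.77 and 9.54 in wildtype (difference -1.27 ± 0.12, SE, limma adjusted p = 0.00254). By limma without an intensity trend its adjusted p was 0.279. Here and below, the fit without the trend also left out robust estimation. The 10 heart muscle markers had a median level of 3.51, against 12.37 for 8 liver markers and 11.22 for 9 erythroid markers, in samples labelled heart. The heart markers ran from Myh6, a cardiac myosin, at 1.92, past Nkx2-5, a cardiac homeobox factor, at 3.47, up to the myosin light chain Myl7 at 7.20 and the cardiac actin Actc1 at 8.15. Most of these levels go against the labelled tissue, so the samples are called here by their Sp3 label. With 3 arrays a group the precision is limited, and a p-value speaks of the spread among these 6 samples alone.

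Mitotic transcripts were abundant in all 6 arrays and mostly a little lower in the Sp3 knockout arrays. Of the 39 genes, 33 had a lower mean in knockout and 6 a higher one. The number with a lower mean was 32 after quantile normalization and 38 with each array centred on its median. Over all probe sets 47.8% had a lower mean in knockout, and over 1 probe set of each gene 52.5%. The median difference was -0.21, a fold of 0.863, against 0.02 over all 45037 probe sets and -0.02 over all 18193 genes. No gene of the list passed the limma test across all probe sets (0 of 39, smallest adjusted p = 0.618), where 0.0311% of probe sets passed. At an unadjusted p under 0.05, 13 of 39 genes counted, all with a lower knockout mean, beside 3.89% of all probe sets and 5.51% of genes in that direction. In the higher direction it was 0 of 39, beside 3.27% of probe sets. By limma without an intensity trend and robust estimation 0 of 39 did, with 0 passing and a smallest unadjusted p of 0.09997. Beside this, 5.99% of probe sets had an unadjusted p under 0.05 in either direction and 0% passed. In 12 genes the 3 knockout arrays all lay below the 3 wildtype arrays, and in 0 all above, where 6.89% of probe sets and 9.04% of genes did not overlap in the lower direction and 6.15% of probe sets in the higher. The 2 counts shared 9 genes.

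The level of a gene bears on these counts, because bright probe sets spread less and more often had a lower mean in knockout. All 39 genes lay among the 9008 brightest probe sets, at or above a level of 7.34, and 36 in the top 1 of 10 level classes. Among those 9008, 62.2% of probe sets had a lower mean in knockout, 9.09% an unadjusted p under 0.05 in the lower direction, and 14% no overlap in that direction, with a median difference of -0.05. The 12 and 13 of 39 genes, 30.8% and 33.3%, are to be read beside these shares as well. After quantile normalization the median difference was -0.15, and 5 genes had an unadjusted p under 0.05, with the share of all probe sets not given here.

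**Figure D1:**
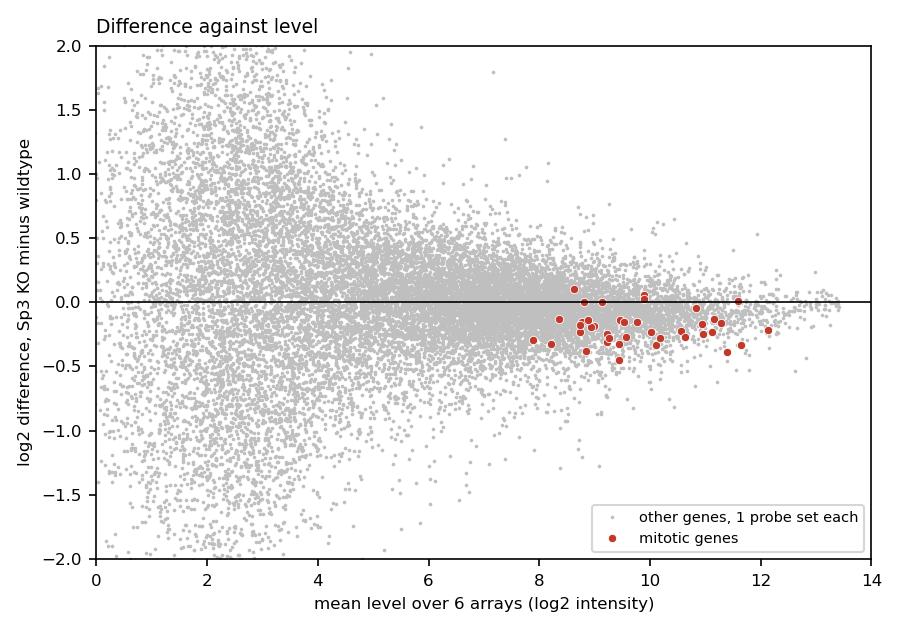
Each point is a gene at its probe set of highest mean, with the mean level over 6 arrays (log2 intensity) across and the difference, Sp3 knockout minus wildtype (log2), up. The 39 mitotic genes, in red, sit between levels of 7.89 and 12.13 and mostly below 0, within the cloud of the other genes; 475 other genes outside the axes are not drawn.

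The promoters of these genes are shown because the list shares sequence features that its choice did not use, among them the GC box that factors of the Sp family bind. RefSeq windows (GRCm38.p6, from 250 bases before to 50 after the start of transcription) were found for 34 of the 40 genes and for 14452 genes on the array. The motif TTTGAA, the core of the cell cycle genes homology region (CHR) that the DREAM complex binds, was searched on both strands and stood in 26 of 34 windows (76.5%), against 13.3% of windows of genes on the array. CCAAT, the box of NF-Y, stood in 25 (73.5%, against 38.2%), and GGGCGG, a GC box, in 28 (82.4%, against 54.0%). All 3 stood together in 20 windows (58.8%), against 2.21% of windows on the array. The TTTGAA matches lay close to the start, 25 of 34 matches beginning between 60 bases before and 50 after it. Genes with a GC box had a median difference of -0.23 (27 genes) and those without one -0.19 (6 genes). With and without TTTGAA the medians were -0.22 (26 genes) and -0.23 (7 genes), and with and without CCAAT -0.22 (24 genes) and -0.23 (9 genes). These are matches to letters, described without a test.

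The last 120 bases before the start are printed for 7 genes with an unadjusted p under 0.05, 5′ to 3′ on the gene's strand, to show how the boxes are spaced. Capitals mark the 3 motifs or their reverse complements, which read TTCAAA for the CHR core, ATTGG for the CCAAT box and CCGCCC for the GC box. In Hmmr a CCAAT box and a GC box overlap, and in Prc1 the last base of TTTGAA is the first transcribed base and is not shown.
Cdk1, chr10:69352913-69353032, minus strand: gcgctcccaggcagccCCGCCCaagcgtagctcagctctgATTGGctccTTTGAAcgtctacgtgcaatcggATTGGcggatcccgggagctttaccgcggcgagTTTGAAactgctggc
Mad2l1, chr6:66535101-66535220, plus strand: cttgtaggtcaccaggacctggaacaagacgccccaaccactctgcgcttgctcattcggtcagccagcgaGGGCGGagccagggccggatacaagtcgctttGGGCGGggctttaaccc
Cenpf, chr1:189688087-189688206, minus strand: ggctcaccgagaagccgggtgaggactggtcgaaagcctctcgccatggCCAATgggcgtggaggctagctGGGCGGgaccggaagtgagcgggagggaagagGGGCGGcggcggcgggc
Prc1, chr7:80294331-80294450, plus strand: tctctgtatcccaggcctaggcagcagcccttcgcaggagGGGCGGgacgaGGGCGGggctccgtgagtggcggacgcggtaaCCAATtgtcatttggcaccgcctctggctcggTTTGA
Hmmr, chr11:40733438-40733557, minus strand: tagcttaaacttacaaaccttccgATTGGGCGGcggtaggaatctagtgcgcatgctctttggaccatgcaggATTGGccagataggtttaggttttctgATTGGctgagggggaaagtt
Anln, chr9:22389207-22389326, minus strand: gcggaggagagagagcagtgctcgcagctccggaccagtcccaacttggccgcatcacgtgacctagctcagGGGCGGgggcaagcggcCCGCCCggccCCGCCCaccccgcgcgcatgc
Ncapg, chr5:45669805-45669924, plus strand: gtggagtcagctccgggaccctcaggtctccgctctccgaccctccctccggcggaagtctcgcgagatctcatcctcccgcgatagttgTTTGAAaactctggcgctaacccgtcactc
The Cdk1 stretch holds 2 TTTGAA, 2 CCAAT and 1 GC box, while that of Anln holds 3 GC boxes and neither of the other motifs.

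Among the cyclins and their kinase, all 3 measured genes had lower means in knockout. Cdk1, the kinase that drives entry into mitosis, was at 10.85, 10.96 and 10.69 in the knockout arrays (always in the order a, b, c), against 11.13, 11.11 and 10.999 in wildtype. The groups did not overlap, and the difference was -0.25 ± 0.09 (SE), with an unadjusted p of 0.0165 and an adjusted p of 0.640. Ccna2, cyclin A2, stood at 11.36, 11.53 and 10.71 in knockout and at 11.61, 11.65 and 11.51 in wildtype. Only 1 knockout array, c, lay far down, and the difference of -0.39 was -0.14 without it. Ccnb2, cyclin B2, differed by -0.22, with knockout b, at 10.70, inside the wildtype range of 10.61 to 10.74.

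The mitotic kinases outside the other groups did not show a shared difference. Plk1, a kinase of centrosomes and kinetochores, averaged 9.13 with an SD of 0.12 over the 3 knockout arrays and 9.13 with an SD of 0.32 over the 3 wildtype arrays, and the 95% interval of the difference ran from -0.32 to 0.33. Aurka, the spindle pole kinase Aurora A, was at 9.99, 10.13 and 9.60 in knockout, against 9.96, 10.30 and 10.17 in wildtype. The groups overlapped, and its difference of -0.23 ± 0.14 (SE, unadjusted p = 0.110) was -0.08 without knockout c.

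The chromosomal passenger complex corrects faulty attachments and acts again in cytokinesis. Birc5 (survivin), its targeting subunit, was at 10.93, 11.13 and 10.95 in knockout, against 11.33, 11.21 and 11.15 in wildtype. Every knockout array lay below every wildtype array, though knockout b and wildtype c nearly met, and the difference was -0.23 ± 0.09 (SE, unadjusted p = 0.0203, adjusted p = 0.656). The kinase Aurkb differed by -0.16 and the scaffold Incenp by -0.04, with intervals from -0.46 to 0.15 and from -0.22 to 0.14.

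All 4 spindle checkpoint genes lay lower in every knockout array than in any wildtype array. In that direction 9.04% of all genes and 14% of the 9008 brightest probe sets did not overlap. Mad2l1 (Mad2), which binds and blocks the APC/C activator, was at 10.40, 10.59 and 10.47 in knockout, against 10.90, 10.70 and 10.68 in wildtype. Its difference of -0.27 ± 0.09 (SE) had an unadjusted p of 0.0122 and an adjusted p of 0.620, and it was -0.26 without knockout c. Bub1b (BubR1), another part of the checkpoint complex, was at 9.14, 9.08 and 9.10 in knockout, against 9.23, 9.39 and 9.44 in wildtype. The SD over the knockout arrays was 0.03, the groups did not overlap, and the difference was -0.25 ± 0.10 (SE, unadjusted p = 0.0367, adjusted p = 0.680). The kinases Bub1 and Ttk differed by -0.14 and -0.23, with unadjusted p of 0.172 and 0.0789. For Ttk, knockout a at 8.79 and wildtype c at 8.81 nearly met. A second Ttk probe set, at a mean level of 5.56, differed by 0.24.

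Both measured partners of the APC/C overlapped between the groups. Ube2c, its ubiquitin-conjugating enzyme, was at 11.58, 11.79 and 11.08 in knockout, against 11.91, 12.02 and 11.50 in wildtype. The array lettered c was the lowest in each group, and the difference was -0.33 ± 0.22 (SE, unadjusted p = 0.179). Cdc20, the activator, differed by -0.13.

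Of the 5 centromere and kinetochore genes, 3 had an unadjusted p under 0.05, all with lower knockout means, and the others lay near 0. In that direction 5.51% of all genes and 9.09% of the 9008 brightest probe sets had one. Cenpf, a kinetochore protein of late G2, was at 9.25, 9.44 and 9.14 in knockout, against 9.68, 9.76 and 9.37 in wildtype. Knockout b lay above wildtype c, and the difference was -0.33 ± 0.13 (SE, unadjusted p = 0.0239, adjusted p = 0.661). Cenpe, the kinesin that lines up chromosomes, was at 9.12, 9.24 and 8.82 in knockout, against 9.31, 9.37 and 9.44 in wildtype. The groups did not overlap, and its difference of -0.31 was -0.19 without knockout c. Ndc80, which contacts the microtubule, was at 7.64, 7.88 and 7.71 in knockout, against 8.03, 8.001 and 8.08 in wildtype, with no overlap and a difference of -0.29 ± 0.13 (SE, unadjusted p = 0.0450). Its partner in the same complex, Nuf2, differed by 0.00, with an interval from -0.27 to 0.28, and the centromere histone Cenpa by 0.06. The difference between Ndc80 and Nuf2 was not tested.

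The 6 kinesins, motors of the spindle, all had lower knockout means, and all overlapped between the groups. Kif23, the motor of the central spindle, was at 8.59, 8.54 and 8.85 in knockout, against 9.09, 8.73 and 9.31 in wildtype. Knockout c lay above wildtype b, and the difference was -0.38 ± 0.15 (SE, unadjusted p = 0.0278, adjusted p = 0.665). Without knockout c it was -0.48, so that array stood on the other side here than for Ccna2. The remaining 5 ran from -0.13 for Kif20b to -0.32 for Kif4, the chromosome-bound motor, which was -0.11 without knockout c. Kif11 (Eg5), the motor that pushes the spindle poles apart, differed by -0.18, and its 2 other probe sets by -0.30 and -0.17.

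Spindle proteins that bundle or organise microtubules held the lowest difference of the list. Prc1, which cross-links antiparallel microtubules of the midzone, was at 9.39, 9.44 and 8.81 in knockout, against 9.66, 9.75 and 9.57 in wildtype. All knockout arrays lay below all wildtype arrays, with c far below the others, and the difference of -0.45 ± 0.15 (SE, unadjusted p = 0.0116, adjusted p = 0.618) was -0.25 without it. Nusap1, a microtubule binder near chromosomes, was at 9.87, 10.15 and 9.79 in knockout, against 10.34, 10.38 and 10.09 in wildtype. Here knockout b lay above wildtype c, and the difference was -0.33 ± 0.12 (SE, unadjusted p = 0.0147). Hmmr, a spindle-pole protein and hyaluronan receptor, was at 10.05, 10.20 and 9.90 in knockout, against 10.41, 10.40 and 10.19 in wildtype. Its groups overlapped slightly, the difference was -0.28 ± 0.11 (SE, unadjusted p = 0.0197), and its 4 other probe sets differed by -0.34, -0.33, -0.32 and -0.26. Tpx2, an activator of Aurora A, differed by -0.15.

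In cytokinesis, Anln (anillin), which links actin and myosin in the cleavage furrow, was at 9.38, 9.49 and 9.40 in knockout, against 9.69, 9.71 and 9.69 in wildtype. The SD was 0.06 over the knockout arrays and 0.02 over the wildtype arrays, with no overlap. The difference was -0.27 ± 0.10 (SE, unadjusted p = 0.0142, adjusted p = 0.634), and a dimmer Anln probe set, at a mean level of 5.46, differed by 0.10. Ect2, which acts at the midzone in cytokinesis, was the member of highest difference, at 0.10, with an interval from -0.15 to 0.36. Its partner Racgap1 differed by -0.17.

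Condensin and chromosome structure genes were spread around a median difference of -0.16. Ncapg, a condensin I subunit, was at 9.15, 9.24 and 8.98 in knockout, against 9.34, 9.56 and 9.31 in wildtype. The groups did not overlap, and the difference was -0.28 ± 0.12 (SE, unadjusted p = 0.0335, adjusted p = 0.674). The other condensin I subunits Ncapd2 and Ncaph differed by -0.15 and 0.03, and the shared core subunits Smc2 and Smc4 by -0.17 and 0.01. A dimmer Ncaph probe set, at a mean level of 8.55, differed by -0.15, opposite in sign to the one used. For Smc4 the 2 dimmer probe sets differed by -0.14 and -0.19, so its probe sets disagree in sign. Top2a, the topoisomerase that untangles sister chromatids, was at 11.20, 11.15 and 11.26 in knockout, against 11.30, 11.41 and 11.37 in wildtype, with no overlap and a difference of -0.16 ± 0.07 (SE, unadjusted p = 0.0504). Mki67 (Ki-67), the coat protein of mitotic chromosomes used as a proliferation marker, was at 12.07, 12.27 and 11.72 in knockout, against 12.34, 12.28 and 12.08 in wildtype. Its groups overlapped, and the difference of -0.21 ± 0.13 (SE, unadjusted p = 0.129) was -0.06 without knockout c.

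**Figure D2:**
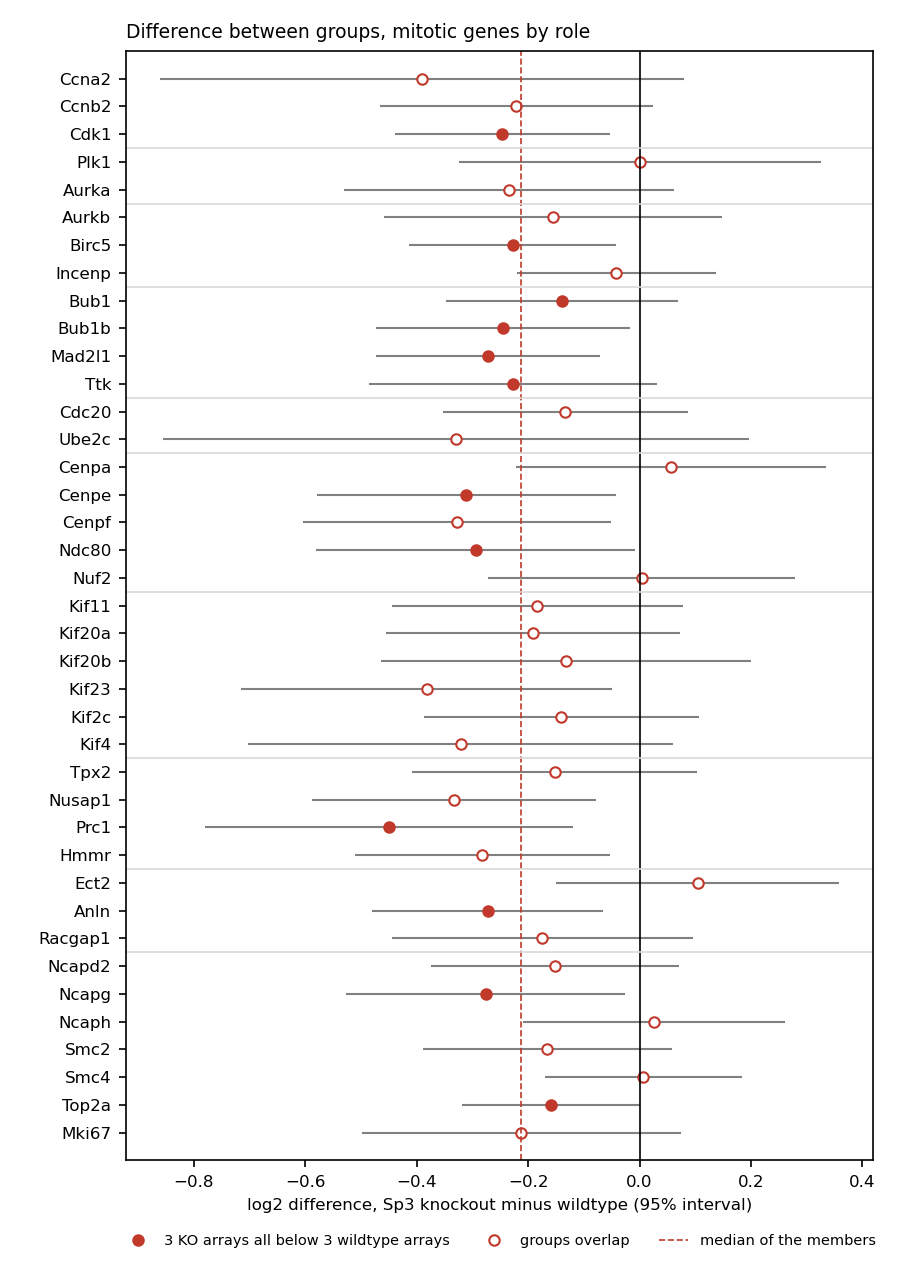
Difference between Sp3 knockout and wildtype (log2) for each of the 39 genes, in blocks by role from cyclins at the top to chromosome structure at the bottom, with the 95% interval of the limma fit. Filled points mark the 12 genes whose 3 knockout arrays all lay below the 3 wildtype arrays, and the dashed line is the median of -0.21; no point reaches -0.5.

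Intervals bound how large these differences could be. Over the 39 genes the lowest 95% bound was -0.86, for Ccna2, and the highest 0.36, for Ect2. Of the 51 further probe sets of these genes, 38 had the sign of the probe set used and 13 the opposite one. Among the 41 of them at or above the median level of all probe sets, 33 had a lower knockout mean, with a median difference of -0.17. Of the 51, 6 had an unadjusted p under 0.05, all with lower knockout means. In that direction 3.89% of all probe sets and 9.09% of the 9008 brightest had one.

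Across arrays, the list level was set as the median, over the 39 genes, of a gene's value minus its mean over 6 arrays. It was -0.10, 0.01 and -0.18 in the knockout arrays, in order of letter, against 0.10, 0.11 and 0.09 in wildtype. The wildtype arrays stood close together, and knockout b was the nearest to them. Knockout a lay below all wildtype arrays in 33 of the 39 genes, knockout c in 29 and knockout b in 16. The knockout SD was the larger in 27 of 39 genes, with a median of 0.15 in knockout and 0.11 in wildtype. Knockout c was the lowest of 6 arrays in 20 genes, and compared with the mean of knockout a and b it was lowest in Ccna2, at -0.74, Kif4, at -0.63, Ube2c, at -0.61, and Prc1, at -0.60. In Kif20b it was higher by 0.42 and in Kif23 by 0.29. Without knockout c the median difference of the list was -0.16, and 33 genes had a lower mean, with Incenp turned higher and Smc4 lower. The count of genes with an unadjusted p under 0.05, 13 over all arrays, was 4 without knockout a, 20 without b and 5 without c, and 4 without wildtype a, 7 without b and 10 without c. The share of all probe sets with each array left out is not given beside these counts. Without that share, the counts cannot be compared with the whole array.

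**Figure D3:**
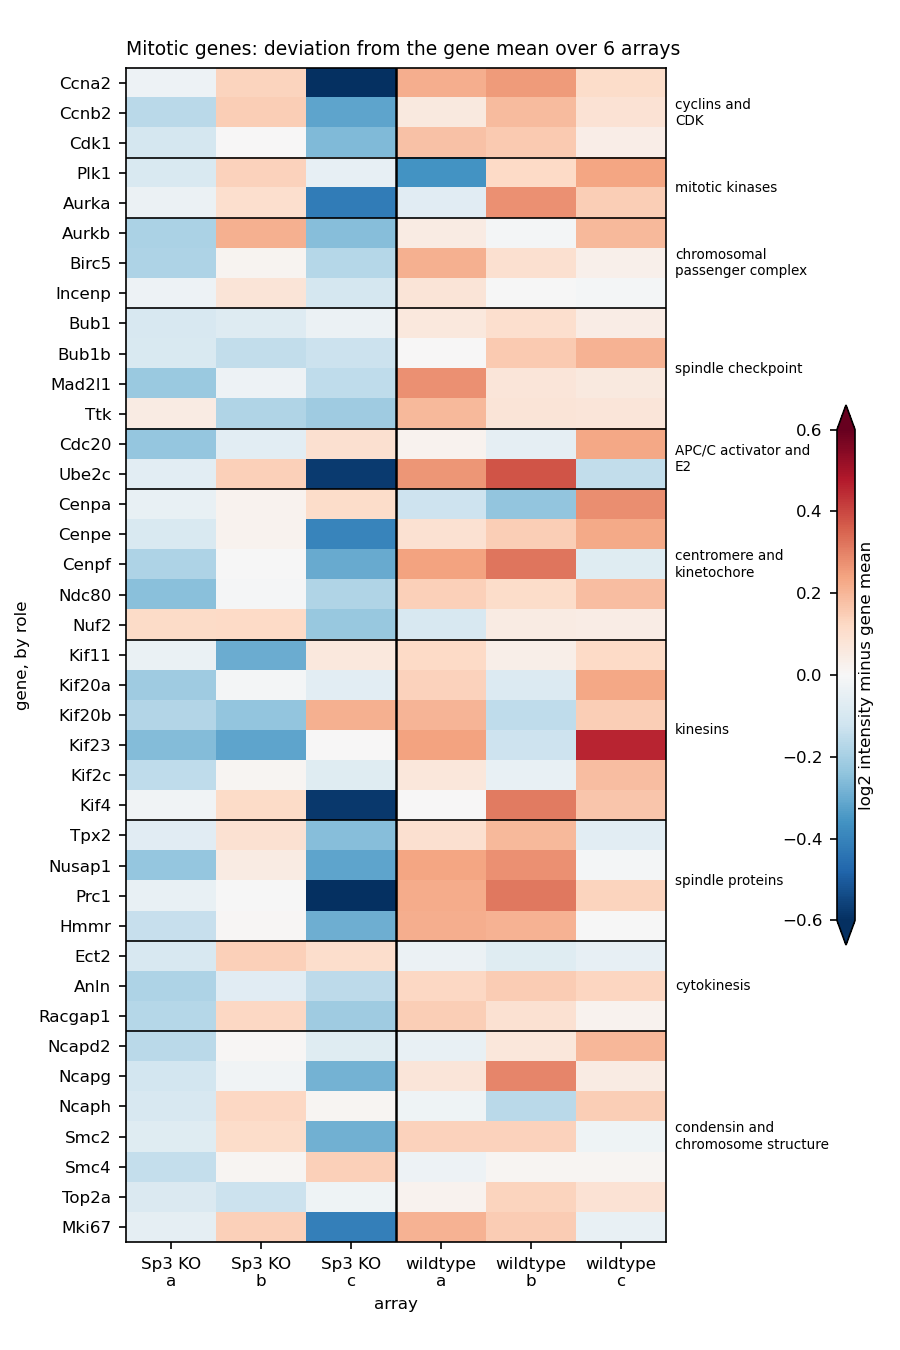
Log2 intensity of each gene in each array minus the gene's mean over the 6 arrays, with Sp3 knockout arrays on the left and wildtype arrays on the right, and genes down the page by role. Blue is below and red above the gene mean; knockout c is dark blue in Ccna2, Ube2c, Kif4 and Prc1, and 2 values lie past the colour scale of 0.6.

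Marker lists of other cell types are given beside these values. Of 8 macrophage markers, 8 had lower knockout means, 6 of them with an unadjusted p under 0.05, where 3.89% of all probe sets and 5.51% of genes had one in that direction, and 2 of 8 by limma without the trend. Differences in this list included C1qb, a complement chain, at -0.75, Ptprc (CD45) at -0.68 and the growth factor receptor Csf1r at -0.51, and the summed intensity of the list lay between 1016 and 1571 in knockout and between 1956 and 2007 in wildtype. Of 9 erythroid markers, 7 had lower knockout means, with the red cell proteins Epb42 at -0.59 and Tfrc at -0.18 and the factor Gata1 at -0.24, and the summed intensity lay between 21060 and 30538 in knockout and between 27192 and 32426 in wildtype. The erythroid level was -0.46 in knockout c, -0.05 in a and 0.17 in b, against 0.17, 0.26 and -0.01 in wildtype a, b and c. Of 8 liver markers, 7 were lower, with Alb (albumin) at -0.18, Apoa1 (an apolipoprotein) at -0.23 and the factor Hnf4a at -0.18, and sums between 36946 and 37440 in knockout and between 36878 and 43242 in wildtype. Heart muscle markers ran the other way, with 7 of 10 higher in knockout. Ttn (titin) and Tnnt2 (troponin T) each differed by 1.23 and Myl7 (a myosin light chain) by 0.70. Tnni3, Nppa and Ryr2 were lower, at -0.41, -0.46 and -0.57. The sums lay between 762.1 and 877.9 in knockout and between 261.9 and 730.9 in wildtype. Actc1, the brightest of the list, overlapped between the groups. The list's median level of 3.51 lies where the median residual SD was 0.94, so sizes there are imprecise. Endothelial markers were higher in 4 of 6, with the receptor Flt1 at 0.76, Emcn at 0.25 and Pecam1 at 0.15, and sums between 443.1 and 584.9 in knockout and between 430.3 and 517.2 in wildtype. Without knockout c the median difference of the macrophage markers, -0.56 over all arrays, was -0.35, and that of the erythroid markers, -0.24, was -0.05. The liver median of -0.13 was then -0.11. The heart muscle median of 0.98 was 0.97, and the endothelial median of 0.12 was 0.03. No marker of these lists had an adjusted p under 0.05, and no marker was listed at 0. The part of these cell types in the mitotic differences was not tested.

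**Figure D4:**
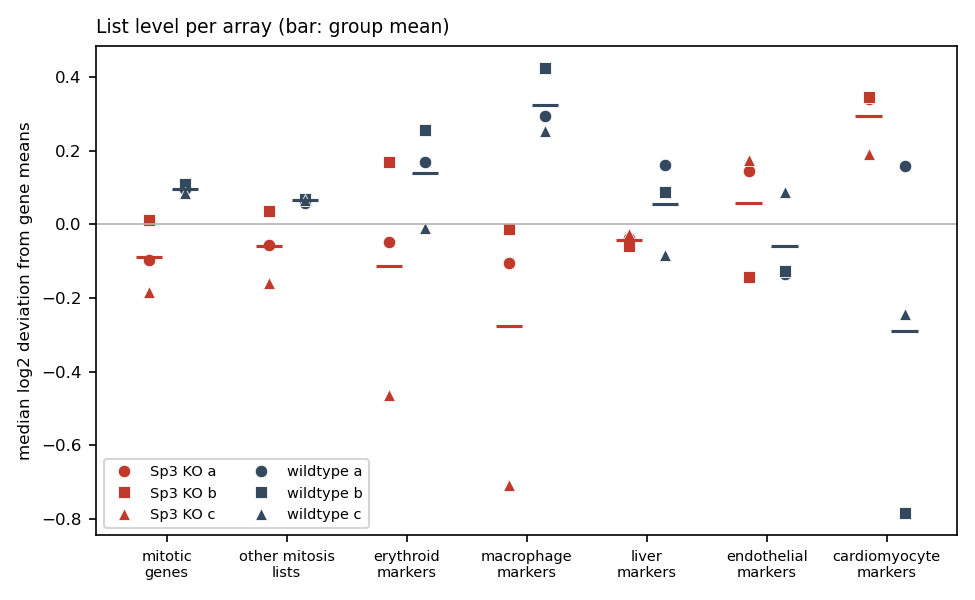
Level of each gene list in each array, as the median log2 deviation of its genes from their means, with knockout arrays in red left of wildtype arrays in dark blue, letters as symbols and bars for group means. The mitotic genes lie at 0.01 or lower in all 3 knockout arrays and at 0.09 or higher in all 3 wildtype arrays. Knockout c is the lowest array for them, and also for the other mitosis lists and the erythroid and macrophage markers.

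The mitotic pathway beyond the 39 genes was read from 7 further lists, with 138 of 139 genes measured. Of these, 111 had a lower knockout mean and 27 a higher one, the median difference was -0.09, and 18 had an unadjusted p under 0.05 in the lower direction and 1 in the higher, with 0 passing. The lower count is to be read beside 5.51% of all genes and 9.09% of the 9008 brightest probe sets. By limma without the trend, 5 of 138 had an unadjusted p under 0.05, where 5.99% of all probe sets did, and 0 passed. Kinetochore genes were lower in 29 of 33, with Cenpi at -0.47, Cenpn at -0.31 and Mis18a, which helps load the centromere histone, at -0.29. Spindle and cytokinesis genes were lower in 24 of 30. Arhgef39 was at 6.15, 6.42 and 6.41 in knockout, against 7.29, 7.15 and 7.02 in wildtype, with no overlap, a difference of -0.83 ± 0.18 (SE) and an adjusted p of 0.246, the smallest of the 138. Kif22 and Spag5, a chromosome kinesin and a spindle protein, each differed by -0.38. Kif14 carried the single count in the higher direction, named after its value was seen, and its mean level of 1.42 lies where the median residual SD was 1.27, so no size is given.

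With all arrays, the lists below had medians nearer 0 than the kinetochore list and the spindle and cytokinesis list, each at -0.15. Without knockout c this order did not hold throughout. The spindle and cytokinesis median was then -0.06 and the kinetochore median -0.12. APC/C genes stood at -0.07, entry kinases and phosphatases at -0.08, cohesin and condensin II genes at -0.04 and transcriptional regulators at -0.05. Over all arrays, the 5538 genes among the 9008 brightest probe sets had a median of -0.06. Cohesin and condensin II genes had a median of -0.09, with 15 of 17 lower and Sgo1 (shugoshin, the guard of centromere cohesion) at -0.35, Ncaph2 at -0.25 and Smc1a at -0.15. APC/C subunits and regulators had a median of -0.06, with 16 of 17 lower, Fbxo5 (Emi1, an inhibitor of the APC/C) at -0.29, Anapc13 at -0.21 and Anapc5 at -0.16. Among entry kinases and phosphatases, 10 of 14 were lower. Cdc25c, a phosphatase that activates Cdk1, was at 6.95, 6.85 and 6.80 in knockout, against 7.60, 7.51 and 7.23 in wildtype, with no overlap, a difference of -0.58 ± 0.16 (SE) and an adjusted p of 0.510. The cyclin Ccnf differed by -0.31, and Bora, a cofactor of Aurora A, by 0.24 with no overlap.

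Regulators of mitotic transcription were lower in 15 of 20, with a median of -0.08. E2f8, an E2F repressor, was at 8.40, 8.88 and 8.11 in knockout, against 9.06, 9.09 and 8.96 in wildtype, with a difference of -0.57 ± 0.17 (SE) and an adjusted p of 0.541. The E2F partner Tfdp1 differed by -0.24 and the NF-Y subunit Nfyc by -0.22, both with no overlap. CDK inhibitors were higher in 5 of 7. Cdkn1a (p21) was at 6.32, 6.22 and 5.56 in knockout, against 5.86, 5.55 and 4.85 in wildtype, overlapping, with a difference of 0.61 ± 0.31 (SE) and an adjusted p of 0.717. Cdkn2c (p18), at 7.18, 7.54 and 6.02 in knockout and 8.05, 8.27 and 7.30 in wildtype, differed by -0.96 ± 0.44 (SE), with the array lettered c lowest in each group. Cdkn2b (p15) lies among dim probe sets, with a mean of 3.77 and an SD of 1.55 over the knockout arrays, against 2.25 and 0.98 over the wildtype arrays.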

How the data were processed

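Gene expression was read from 6 mouse oligonucleotide arrays, grouped by sample title. The authors deposited intensities on a linear scale, per the file's values; RMA and GCOS stand in the submitters' processing notes, without a version or a role. Array medians lay between 22.5 and 26.7 on that linear scale, so log2 was taken. On the log2 scale they ran from 4.49 in wildtype b to 4.74 in wildtype c. Beside the list's median difference of -0.21 this range is not small. Nothing else was normalized in the main setting. The design had been written for log2 values. Symbols came from the platform annotation and were matched to RefSeq (GRCm38.p6) by gene identifier, for 34741 of 34945 probe sets with 1 gene. The 64 control probe sets were left out.

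The test was limma 3.58.1 in R 4.3.3 (lmFit and eBayes with an intensity trend and robust estimation, group as the only term), two-sided, on 45037 probe sets, with Benjamini-Hochberg adjustment over all of them and a threshold of 0.05. It was tested on simulated data. The trend was chosen because the residual SD falls with level, with a median of 1.27 in the dimmest and 0.13 in the brightest of 10 level classes. The members, the lists, the trend and the tests were chosen with earlier results of these data known. Per-array values are given for the member of smallest p in each role, those with an unadjusted p under 0.05, those of highest and lowest mean, Mki67, Top2a and Cdk1, and the 3 genes of smallest p are named in each other list; members and genes named beyond this were picked after their values were seen. No array was a copy of another.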

Additional observations from a re-analysis of the deposited data

How the results depend on the processing

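No gene of the list passed at an adjusted p under 0.05 under any of the 10 settings with all arrays besides the main one or the 6 that left out an array. The smallest limma adjusted p of a gene of the list over these settings was 0.058, close to the threshold. The median difference kept its sign, between -0.29 and -0.15 with all arrays and between -0.28 and -0.16 with an array left out. Without the trend and robust estimation, the genes of the list with an unadjusted p under 0.05 numbered 0, those of the other mitosis lists 5, and all probe sets that passed 0. After quantile normalization the first 2 counts were 5 and 12. All probe sets that passed, 14 in the main setting, numbered 25 with array weights, 9 with a mean over each gene's probe sets (fewer features tested) and 6 in a fit of the 9008 brightest alone, added after seeing the data (also fewer features). With an array left out, from 4 to 20 genes of the list and from 10 to 32 of the other lists had an unadjusted p under 0.05. Probe sets that passed at an adjusted p under 0.05 numbered from 3 to 24. Genes of the list without overlap numbered from 14 to 26, which fewer arrays make easier to reach. With all arrays, genes of the list without overlap numbered from 9 to 15. For quantile normalization, for arrays left out and for the counts without overlap here, the list counts stand without the share of all probe sets. Other causes were not tested.

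With the letter as a replicate block, 21 genes of the list and 35 of the other lists had an unadjusted p under 0.05. At an adjusted p under 0.05, 258 of all probe sets and 0 genes of the list passed. The share of all probe sets beside the 21 and 35 is not given here. The labels do not say that letters pair the hearts. Deviations of arrays with the same letter correlated, across probe sets above the median level, at 0.0095 for a, 0.31 for b and 0.44 for c (across all probe sets at -0.0070, 0.050 and 0.080). Knockout a correlated best with wildtype b, at 0.13, while knockout b and c each correlated best with their own letter. Knockout b with wildtype c stood at -0.36, and knockout c with wildtype b at -0.38. The deviations were taken from group means and cancel out within a group, so these correlations are not independent of each other. The letters were not taken as pairs in the main fit, and whether b and c share a structure by letter was not tested.

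Signs turned in 9 genes, none of which passed. With a mean over each gene's probe sets the difference was 0.053 for Incenp, 0.0070 for Ttk, 0.031 for Cdc20, 0.0029 for Ncapd2, -0.063 for Ncaph and -0.11 for Smc4. With median centring it was -0.076 for Plk1, -0.020 for Cenpa, -0.072 for Nuf2, -0.050 for Ncaph and -0.069 for Smc4. It was 0.016 for Incenp after quantile normalization, -0.018 for Smc4 with array weights and -4.4e-05 for Plk1 with 16 units added before log2. With an array left out it ran from -0.18 to 0.12 for Plk1, -0.055 to 0.12 for Nuf2, -0.048 to 0.11 for Ncaph, -0.090 to 0.0015 for Incenp, -0.062 to 0.081 for Smc4 and -0.049 to 0.21 for Cenpa. The dim end of the scale is limited by spread, and all 39 genes lie above it.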
